A study of Mus musculus with 32 samples.

Results

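The fat synthesis enzymes described here are 9 genes of de novo lipogenesis, Acly, Me1, Acaca, Acacb, Fasn, Elovl5, Elovl6, Scd1 and Gpam, chosen by name and matched to the gene names of 4 organ tables. The tables hold 10052 distinct gene names, and all 9 enzymes occur in at least 1 of them: liver lists 7, duodenum 1, jejunum 0 and ileum 3. RNA with poly-A tails was sequenced in bulk from liver, duodenum, jejunum and ileum of male mice of 2 genotypes, wild type (WT) and Khk knockout (Khk KO), with 4 libraries for each genotype in each organ and 32 libraries in all. Khk encodes ketohexokinase, which phosphorylates fructose, and the stated question was how fructose and ketohexokinase act on iron homeostasis. Strain, age, diet, fasting state, the way the allele was made and whether 1 mouse gave all of its organs are not given in the sources used here. The titles number the libraries but name no animal, so p-values may measure the spread between these libraries only.

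De novo lipogenesis turns surplus carbohydrate into fat. Acly (ATP citrate lyase) splits citrate into acetyl-CoA, Me1 (malic enzyme) supplies NADPH, Acaca and Acacb (acetyl-CoA carboxylases) make malonyl-CoA, and Fasn (fatty acid synthase) builds palmitate from it. Elovl5 and Elovl6 lengthen fatty acids, Scd1 (stearoyl-CoA desaturase) adds a double bond to saturated ones, and Gpam (mitochondrial glycerol-3-phosphate acyltransferase) joins a fatty acid to glycerol phosphate, the first step towards triglyceride. In liver, sugar and insulin raise many of these genes through the transcription factors ChREBP (Mlxipl) and SREBP-1c (Srebf1), and fructose feeding is a classic stimulus of the pathway.

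Promoter sequence is shown for 3 enzymes whose levels are followed below, Fasn and Gpam, which were higher in Khk KO liver, and Me1, which was lower. Each is the 250 bases before a RefSeq start site on GRCm38.p6, read 5′ to 3′ on the gene's own strand, and capitals mark CCAAT boxes (CCAAT) and GC boxes (GGGCGG) on either strand.
Fasn, minus strand, chr11:120824548-120824797: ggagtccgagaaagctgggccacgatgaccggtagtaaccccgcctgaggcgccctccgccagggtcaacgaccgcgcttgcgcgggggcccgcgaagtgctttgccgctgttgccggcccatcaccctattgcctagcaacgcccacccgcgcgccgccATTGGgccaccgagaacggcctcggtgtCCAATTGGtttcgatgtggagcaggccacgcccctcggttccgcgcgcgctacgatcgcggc
Gpam, minus strand, chr19:55099478-55099727: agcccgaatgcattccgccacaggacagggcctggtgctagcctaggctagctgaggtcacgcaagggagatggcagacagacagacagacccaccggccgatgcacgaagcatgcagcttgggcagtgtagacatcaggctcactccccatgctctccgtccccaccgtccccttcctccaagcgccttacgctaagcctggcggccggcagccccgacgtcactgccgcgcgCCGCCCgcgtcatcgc
Me1, minus strand, chr9:86695915-86696164: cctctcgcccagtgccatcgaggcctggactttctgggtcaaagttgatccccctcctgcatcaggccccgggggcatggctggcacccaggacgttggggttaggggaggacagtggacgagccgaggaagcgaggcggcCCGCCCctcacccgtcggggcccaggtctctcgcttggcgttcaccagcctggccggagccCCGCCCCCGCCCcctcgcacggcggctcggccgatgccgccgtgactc
Fasn holds 3 CCAAT boxes, of which a pair overlap in their letters, and 0 GC boxes. In the stretches shown, Gpam holds 1 GC box and 0 CCAAT boxes, and Me1 holds 3 GC boxes and 0 CCAAT boxes. RefSeq gives each of these 2 genes another start site, and the 250 bases before it hold 1 CCAAT box and 0 GC boxes in Gpam and the same in Me1. A CCAAT box was found in 33.8% and a GC box in 32.7% of the 250-base stretches before all 32851 RefSeq start sites. RefSeq windows were matched for 8 of the 9 enzymes, with 10 windows, and none was matched for Scd1. The E-box CACGTG occurred in 1 of these 10 stretches, that of Elovl5 (6.02% of all stretches), and the sterol regulatory element letters TCACNCCAC in 0 of them (1.05% of all stretches). Of the other enzymes listed in liver, Acly, higher in the Khk KO mean, holds 4 GC boxes and 0 CCAAT boxes. Elovl5, lower in the Khk KO mean, holds 2 CCAAT boxes and 0 GC boxes, and Acaca holds 0 of either. These are matches of letters, not measured binding, and a link between boxes and direction of change was not tested.

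Khk itself was low in every knockout library. Its normalised read count, the count divided by the authors' size factor for that library, ran from 5784 to 11769 in WT and from 743 to 1000 in Khk KO liver, and the Khk KO mean was 11.1% of the WT mean there, 4.59% for duodenum, 9.25% for jejunum and 6.65% for ileum. The hepatocyte list had 6 of its 8 markers in the liver table, summing to 378060 to 541093 in WT and 351583 to 400557 in Khk KO. At an adjusted p of 0.05 in the authors' deposited table, 4 of these 6 were lower and 1 higher. Markers of other cells moved in liver too. The 5 listed erythroid markers, all lower in the authors' deposited table at an adjusted p of 0.05, summed to 4584 to 10959 in WT and 2967 to 3515 in Khk KO. The macrophage marker Lyz2, the 1 listed of 7 immune markers, ran from 908 to 2693 in WT and from 658 to 858 in Khk KO. The endothelial marker Kdr, the 1 listed of 3, ran from 324 to 988 in WT and from 1054 to 1158 in Khk KO. With the trend on deposited gene length, described below, taken out, edgeR called Hbb-bt (log2 fold change −1.13, adjusted p = 0.0345). It did not call Hba-a1, Hba-a2, Hbb-bs, Alas2, Lyz2 or Kdr in that fit. The part of these markers in the enzymes' values was not tested. Of 8 enterocyte markers 1 is listed in duodenum, 3 in jejunum and 4 in ileum, where they summed to 164589 to 234164 in WT and 122322 to 160882 in Khk KO. The tables hold only genes whose deposited unadjusted p-value is under 0.05, 6375 for liver, 1567 for duodenum, 2413 for jejunum and 5187 for ileum. A listed enzyme had therefore already passed a test of the same contrast, and an enzyme outside a table has no value here. The reads of listed genes summed to 7505439 to 14331517 per liver library, and to 1722220 to 3549978 per duodenum, 3053896 to 4325568 per jejunum and 6531593 to 9149003 per ileum library.

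In liver, the enzymes moved in both directions. Scd1 and Me1 fell in Khk KO, and Acaca, Fasn and Gpam rose. These 5, of 7 listed and 9 in all, passed an adjusted p of 0.05 in edgeR's quasi-likelihood test with Benjamini-Hochberg adjustment. The test called 44.0% of the genes in the liver table, 20.9% higher and 23.1% lower, and 15.4% of the genes over which the authors adjusted. The authors' deposited table passed 6 of the 7 listed, the same 5 and Acly, beside 68.5% of its genes. The 4 WT and 4 Khk KO libraries did not overlap for 6 of the 7 listed enzymes and for 65.0% of the liver table. The median log2 fold change of the 7 listed enzymes was 0.47, against 0.30 over all genes fitted in liver. Changes near 0 are absent from the tables, so a median over listed genes can jump across that gap and does not give a typical change. The median over all genes was 0.42 in the authors' deposited table for liver. In ileum it was −0.28 in edgeR and 0.30 in the authors' deposited table. Fewer cells of a type and less RNA per cell cannot be told apart in bulk tissue.

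**Figure D1:**
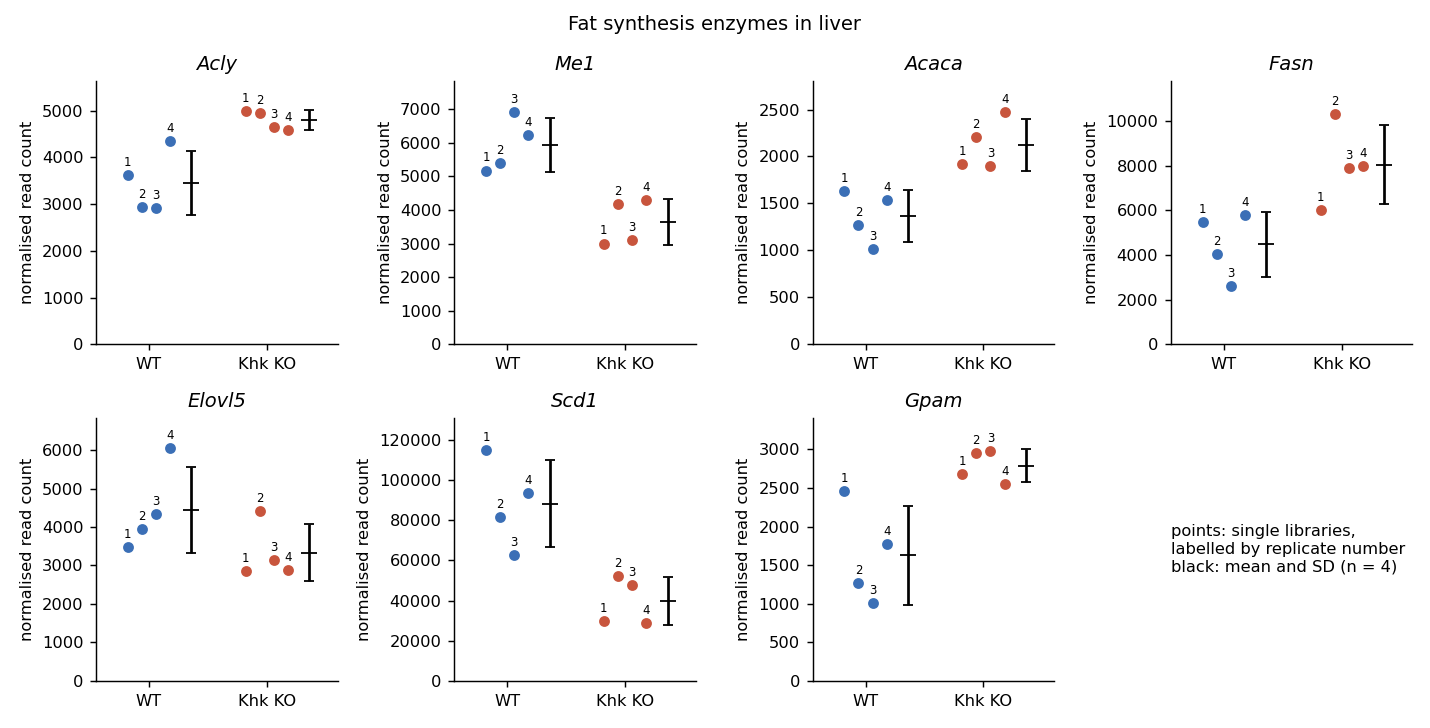
Normalised read counts of the 7 listed enzymes in the 4 WT (blue) and 4 Khk KO (red) liver libraries, each point 1 library labelled by its replicate number, with the mean and SD in black; each axis starts at 0. Scd1 and Me1 lie lower in every Khk KO library than in any WT library, Acaca, Fasn, Gpam and Acly lie higher, and Elovl5 overlaps.

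Scd1 was the most abundant of the listed enzymes per length. Scd1 (ENSMUSG00000037071, chr19:44394451-44407709, minus strand, gene length 4836 bases) had 114856, 81858, 62791 and 93804 normalised counts in WT liver and 29812, 52463, 47929 and 28974 in Khk KO. The lowest WT library, replicate 3, lay above the highest Khk KO library, replicate 2. The mean went from 88327 ± 21815 (SD, n = 4) to 39794 ± 12157 (SD, n = 4), 45.1% of WT, and the log2 fold change was −1.15 ± 0.23 (SE; edgeR adjusted p = 0.0178). In FPKM, which is per length, Scd1 stood at 1567 ± 365 in WT and 698 ± 218 in Khk KO, and no other listed enzyme exceeded 157 in any liver library. Without a library, the log2 fold change of Scd1 ran from −1.31 to −0.998; its adjusted p went above 0.05 without WT replicate 4 (0.0508) or without Khk KO replicates 1 (0.0571), 2 (0.0544) or 4 (0.0580).

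Me1 (ENSMUSG00000032418, chr9:86581371-86695953, minus strand, 3848 bases) had 5175, 5412, 6929 and 6222 normalised counts in WT liver and 3000, 4183, 3101 and 4297 in Khk KO. All Khk KO libraries lay below all WT libraries. The mean fell from 5935 ± 801 to 3645 ± 690 (SD, n = 4 each), a log2 fold change of −0.70 ± 0.16 (edgeR adjusted p = 0.0205). It stayed past the threshold without WT replicate 1 or 3 and missed it without any other single library (highest adjusted p = 0.0679). Of the 50-base words of the longest Me1 transcript, 46.8% also occur in transcripts of other genes, most of them in Gm7049, so reads could be split between copies.

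Of the enzymes that make palmitate, Fasn had the largest log2 fold change. Fasn (ENSMUSG00000025153, chr11:120805846-120824547, minus strand, 10947 bases) had 5460, 4061, 2606 and 5812 normalised counts in WT liver and 6005, 10340, 7904 and 7973 in Khk KO. WT replicate 3 was the lowest library and Khk KO replicate 2 the highest, and the groups were apart by the small gap between WT replicate 4 and Khk KO replicate 1. The mean rose 1.80-fold, from 4485 ± 1463 to 8055 ± 1775 (SD, n = 4 each), with a log2 fold change of 0.85 ± 0.24 (edgeR adjusted p = 0.0376). Acaca (ENSMUSG00000020532, chr11:84129672-84401651, plus strand, 17074 bases) had 1635, 1268, 1015 and 1532 in WT and 1917, 2203, 1893 and 2476 in Khk KO. It too was higher in every Khk KO library than in any WT library, 1.56-fold in the mean (log2 fold change 0.64 ± 0.17, edgeR adjusted p = 0.0318). Both calls held without WT replicate 1 or 3 and were lost without any other single library, with adjusted p up to 0.118 for Fasn and 0.0959 for Acaca. Much of the Acaca transcript has a near copy: 52.6% of its 50-base words occur in the pseudogene Gm5182, itself listed at 203 ± 62.9 normalised counts in WT and 323 ± 50.5 in Khk KO liver (SD, n = 4 each).

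Acly (ENSMUSG00000020917, chr11:100476353-100528000, minus strand, 5279 bases), which feeds acetyl-CoA to the carboxylases, had 3629, 2933, 2921 and 4356 normalised counts in WT and 5001, 4958, 4655 and 4580 in Khk KO liver. All Khk KO libraries lay above all WT libraries, and the Khk KO libraries were close to each other. The log2 fold change of 0.47 ± 0.15 did not pass in edgeR (adjusted p = 0.0507) and passed in the authors' deposited table (adjusted p = 0.0168). Elovl5 (ENSMUSG00000032349, chr9:77917364-77984519, plus strand, 3522 bases) had 3477, 3950, 4339 and 6046 in WT and 2866, 4426, 3133 and 2892 in Khk KO. Khk KO replicate 2 lay among the WT libraries, and neither edgeR (log2 fold change −0.42 ± 0.20, adjusted p = 0.184) nor the authors' deposited table (adjusted p = 0.124) called it. With the GC trend taken out it passed (−0.77, edgeR adjusted p = 0.0386), and it also passed without WT replicate 1 (adjusted p = 0.0483). Acacb, the carboxylase of the mitochondrial surface, and Elovl6 are not listed in the liver table.

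Gpam, the enzyme that commits fatty acids to glycerolipids, passed the test in both liver and ileum; of the other enzymes, only Acaca is listed in both. Gpam (ENSMUSG00000024978, chr19:55069734-55099451, minus strand, 3832 bases as deposited) had 2459, 1272, 1006 and 1777 normalised counts in WT and 2674, 2950, 2980 and 2549 in Khk KO liver. The Khk KO libraries were close together and just above WT replicate 1, while WT spread more widely. The mean rose 1.71-fold, from 1629 ± 640 to 2788 ± 210 (SD, n = 4 each), with a log2 fold change of 0.78 ± 0.24 (edgeR adjusted p = 0.0470). It kept its call only when WT replicate 1 was the library left out, and without any other single library the adjusted p lay above 0.05, up to 0.133. The call was also lost with TMM scaling (adjusted p = 0.0522) and with the GC trend taken out (0.0651).

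The length of a gene moved with the direction of its change in these libraries, and the enzymes' values stand beside that trend. Over 4915 protein-coding genes of the liver table, the slope of a library's log2 level, relative to the mean of the libraries, on log2 gene length was 0.23 to 0.28 per doubling in the 4 Khk KO libraries and −0.51 to 0.03 in WT, lowest in WT replicate 3 and highest in WT replicate 1. In ileum the slopes were 0.18 to 0.21 in Khk KO and −0.36 to −0.07 in WT, and the genotypes did not overlap in any organ. Genotype and this length trend cannot be told apart, since no library of either genotype has the trend of the other. Each enzyme was therefore set beside the 200 protein-coding genes nearest to it in deposited gene length, in log2 fold changes of the authors' deposited table.

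**Figure D2:**
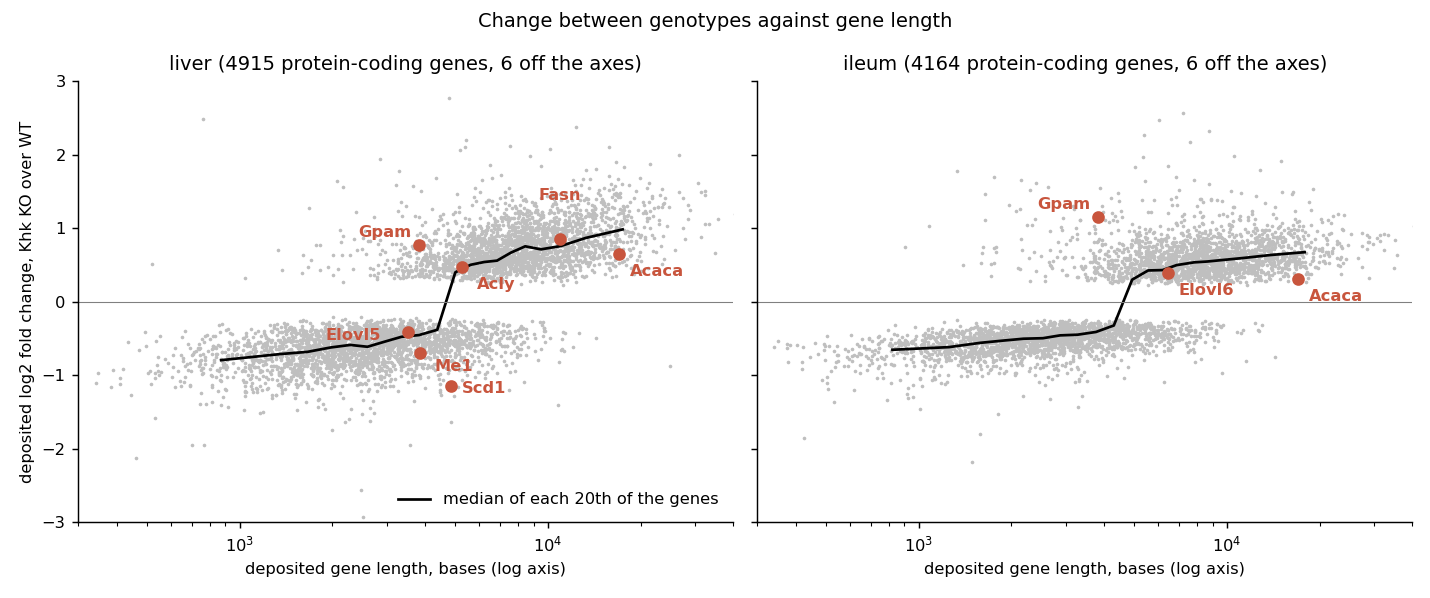
Log2 fold change (Khk KO over WT) in the authors' deposited table against deposited gene length (log axis) for protein-coding genes of liver and ileum whose mean normalised count reached 50 (grey), with the enzymes in red and the median of each 20th of the genes as a line; a few genes lie off the axes. The band around 0 is empty because genes with p above 0.05 are not in the tables. Fasn and Acly lie on the line, Acaca below it, Scd1 far below genes of its length, and Gpam above them at the length deposited for it.

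Scd1 was lower than most listed genes of its length. In the authors' deposited table the 200 genes nearest in length had 0.39 as their median log2 fold change, and 2.50% of them lay below the −1.15 of Scd1. With each library's length trend taken out as an offset, Scd1 still fell (−1.24 ± 0.21, edgeR adjusted p = 0.0152), the only enzyme called in that fit, beside 12.3% of the liver table. Me1 lay below 79.5% of its length neighbours in the authors' deposited table, whose median was −0.44, and its adjusted p in the length fit was 0.0530 (log2 fold change −0.52). With the trend on longest-transcript length taken out Me1 passed (−0.63, edgeR adjusted p = 0.0243), the only enzyme besides Scd1 to do so in that fit. The share of the liver table called in that fit was not counted.

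Fasn and Acaca, among the longest of the enzymes, had values close to or below those of other long genes in the liver table. By the log2 fold changes of the authors' deposited table, 192 of the 200 genes nearest to Fasn were higher in Khk KO, with a median of 0.81 against 0.84 for Fasn, and its log2 fold change with the length trend taken out was 0.06 ± 0.18. All 200 genes nearest to Acaca were higher in Khk KO in the authors' deposited table, with a median of 0.96 against 0.64 for Acaca. With the length trend taken out Acaca turned to −0.42 ± 0.14 (edgeR adjusted p = 0.135). Acly, at 0.47 beside a median of 0.49 in the authors' deposited table, and Elovl5, at −0.42 beside −0.45, lay near the medians of genes of their length.

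The place of Gpam depended on which length it was given. Against genes near its deposited 3832 bases it stood higher than 86.0% in liver in the authors' deposited table, whose median there was −0.46. GENCODE M21 draws a larger gene (chr19:55067268-55127238) whose longest transcript has 6172 bases. Among genes of that transcript length the median in the authors' deposited table was 0.72, 58.0% lay below Gpam, and with the trend on longest-transcript length taken out the log2 fold change of Gpam was 0.13 ± 0.12 (edgeR adjusted p = 1). With the trend on deposited length taken out it was 0.94 ± 0.25 (edgeR adjusted p = 0.0560).

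**Figure D3:**
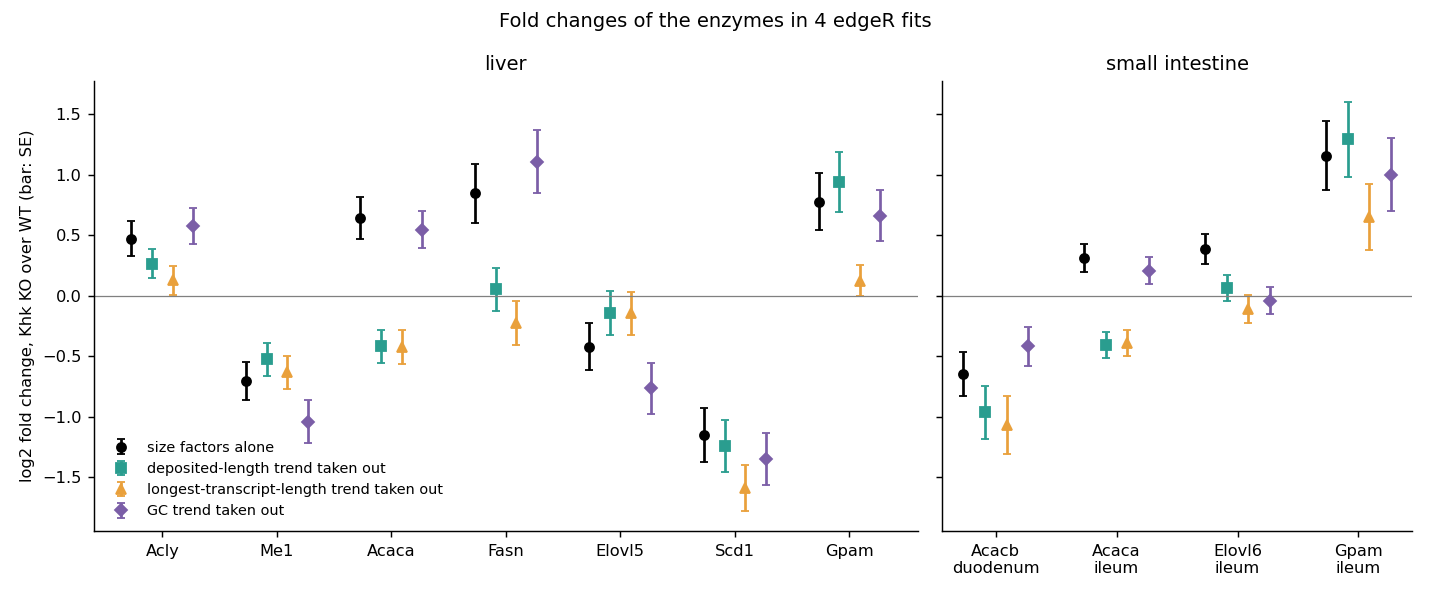
Log2 fold change (Khk KO over WT) with its SE for each listed enzyme in 4 edgeR fits: size factors alone, with the trend on deposited length taken out, with the trend on longest-transcript length taken out, and with the trend on GC content taken out. Scd1, Me1, Elovl5 and Acacb stay below 0 in all 4 fits, and Acly and Gpam stay above it. Acaca and Fasn go from above 0 to about or below 0 in the length fits. Gpam in liver is near 0 only with the longest-transcript length.

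The balance between desaturase and synthase was read in each liver library as the ratio of Scd1 FPKM to Fasn FPKM. It was 47.6, 45.6, 54.5 and 36.5 in WT and 11.2, 11.5, 13.7 and 8.23 in Khk KO. The groups were far apart, with means of 46.1 ± 7.42 and 11.2 ± 2.26 (SD, n = 4 each), a 4.13-fold difference. After the length trend was taken out of each library the ratio was 36.4 ± 9.63 in WT and 14.4 ± 2.75 in Khk KO, 2.53-fold and still without overlap. The ratio of Scd1 to Gpam was 44.8 ± 6.57 in WT and 11.2 ± 2.66 in Khk KO. That of Scd1 to Elovl5 was 15.2 ± 6.20 in WT and 8.66 ± 1.75 in Khk KO, 1.76-fold, and its groups overlapped. Fasn to Acaca was 5.03 ± 0.790 in WT and 5.93 ± 1.18 in Khk KO, and its groups overlapped. These ratios combine values already given and were not tested.

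**Figure D4:**
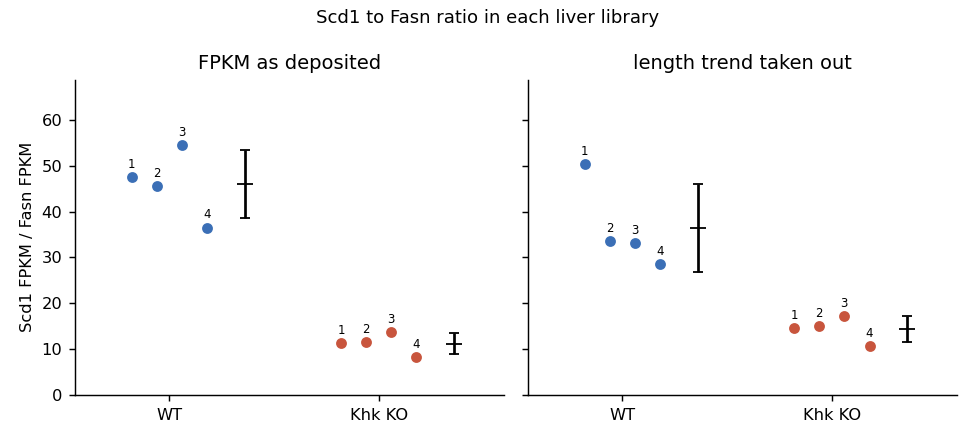
Ratio of Scd1 FPKM to Fasn FPKM in each WT (blue) and Khk KO (red) liver library, as deposited and with the length trend taken out, points labelled by replicate number, mean and SD in black, axis from 0. The lowest WT ratio is 36.5 and the highest Khk KO ratio 13.7 as deposited, and 28.6 and 17.3 with the trend taken out.

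In ileum, 1 of the 9 enzymes, of which 3 are listed, passed in edgeR: Gpam, which rose. The test called 30.6% of the genes in the ileum table (20.1% higher) and 9.89% of those over which the authors adjusted. The authors' deposited table also passed Gpam alone, beside 48.3% of its genes, and groups did not overlap for 2 of the 3 listed enzymes and 66.8% of that table. Gpam had 51.0, 124.9, 115.0 and 158.4 normalised counts in WT ileum and 298.2, 249.5, 239.6 and 216.8 in Khk KO. Every Khk KO library lay above every WT library, and WT replicate 1 was far below the other WT libraries. The mean rose 2.24-fold, from 112 ± 44.9 to 251 ± 34.3 (SD, n = 4 each), with a log2 fold change of 1.15 ± 0.28 (edgeR adjusted p = 0.0330). The call held without WT replicate 1 or 4 and was lost without any other single library (adjusted p up to 0.0984), and with the length trend taken out the adjusted p was 0.0521 (log2 fold change 1.29). By the values of the authors' deposited table, 5.0% of the genes near its deposited length and 4.0% of those near its longest-transcript length lay above Gpam, but with the latter trend taken out the log2 fold change was 0.65 ± 0.27 (edgeR adjusted p = 0.466).

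Elovl6 (ENSMUSG00000041220, chr3:129532355-129638495, plus strand, 6431 bases), which lengthens palmitate to stearate, had 1672, 1378, 1526 and 1279 normalised counts in WT ileum and 2016, 1614, 2049 and 1980 in Khk KO. Khk KO replicate 2 lay below WT replicate 1, and the log2 fold change of 0.39 ± 0.12 did not pass (edgeR adjusted p = 0.0702). Acaca had 766, 888, 762 and 842 in WT ileum and 999, 903, 1165 and 967 in Khk KO. These groups did not overlap, but the log2 fold change of 0.31 ± 0.12 did not pass (edgeR adjusted p = 0.105). The pseudogene Gm5182, the near copy of Acaca, is listed in ileum too. Its log2 fold change in the authors' deposited table was 0.92 (adjusted p = 0.0162), and the part of shared reads in the Acaca value was not tested. With the length trend taken out Elovl6 was 0.07 and Acaca −0.41. By the values of the authors' deposited table, 98.5% of the 200 listed genes nearest to Acaca in length were higher than it. Acaca lay near the cut for listing (deposited unadjusted p = 0.0303). Smaller rises are mostly absent from that table, so this rank does not show that Acaca rose less than long genes in general. Scd1, Fasn, Acly, Me1, Acacb and Elovl5 are not listed in ileum.

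**Figure D5:**
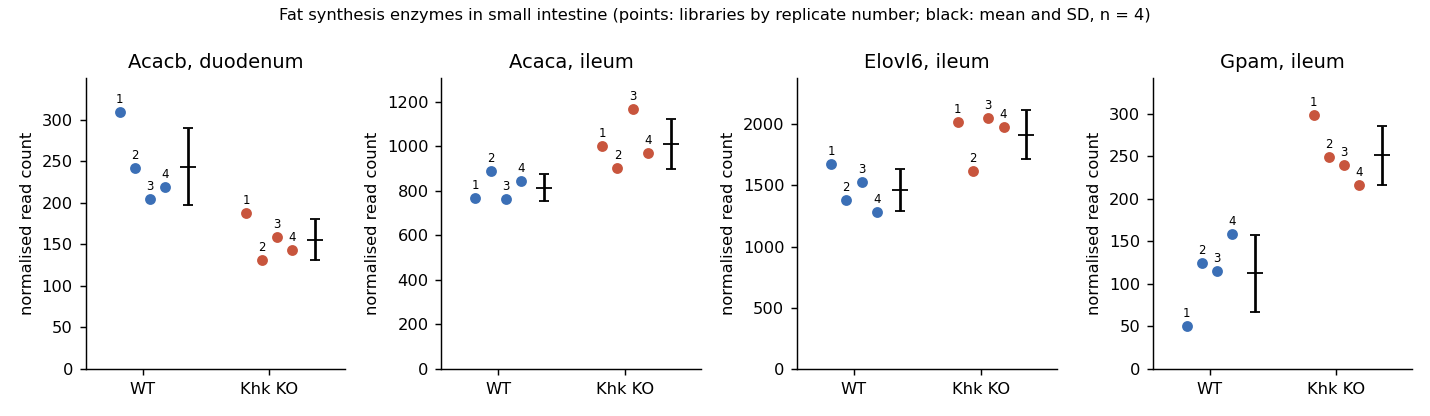
Normalised read counts of Acacb in duodenum and of Acaca, Elovl6 and Gpam in ileum in the 4 WT (blue) and 4 Khk KO (red) libraries, points labelled by replicate number, mean and SD in black, each axis from 0. Gpam and Acaca lie higher in all Khk KO libraries, Acacb lower, and Elovl6 overlaps.

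In duodenum only Acacb is listed, and 0 of the 9 enzymes passed in edgeR, in DESeq2 or in the authors' deposited table. In that organ edgeR called 0.0638% of the table, which is 1 gene, and the authors' deposited table passed 2.23%. Acacb (ENSMUSG00000042010, chr5:114146535-114250761, plus strand, 9632 bases) makes the malonyl-CoA that holds back fatty acid oxidation. It had 309, 242, 204 and 219 normalised counts in WT and 188, 131, 159 and 143 in Khk KO. The groups did not overlap, as for 45.9% of the duodenum table, and the log2 fold change of −0.65 ± 0.18 had an unadjusted edgeR p of 0.0059 and an adjusted p of 0.838. By the values of the authors' deposited table, 5.50% of the 200 genes nearest in length lay below Acacb, against a median of 0.34. No enzyme is listed in jejunum, where edgeR called 0.0414% of the table and the authors' deposited table passed 3.11%.

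Per length, the order of the listed enzymes in WT liver was Scd1 (1567 ± 365 FPKM), Me1 (133 ± 19.4), Elovl5 (109 ± 27.9), Acly (56.3 ± 10.9), Gpam (36.4 ± 13.7), Fasn (35.1 ± 11.2) and Acaca (6.85 ± 1.32, SD, n = 4 each). The WT ranges of Me1 and Elovl5 overlapped, and that of Gpam overlapped those of Acly and Fasn, which lay apart from each other. These levels rest on the deposited lengths, and the longest transcripts of Gpam (6172 bases) and Acaca (9513 bases) differ much from them, so the places of Gpam and Acaca in the order depend on the length used. In Khk KO liver Scd1 still led with 698 ± 218 FPKM, and Me1, Elovl5, Acly, Fasn and Gpam had means from 61.6 to 80.2. Acaca was at 10.5 ± 1.31. Gpam FPKM in ileum was 1.41 ± 0.570 in WT and 3.15 ± 0.430 in Khk KO, and a level set across organs rests on tables that were normalised separately.

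The rest of the pathway was read from a list of 54 genes for citrate export, NADPH supply, elongation, desaturation, acylation and the control of malonyl-CoA. In liver 19 are listed and 8 passed in edgeR, 2 higher and 6 lower, a share close to the 44.0% called over the whole liver table. The higher genes were Lpin2, a phosphatidate phosphatase (5992 ± 1837 to 12203 ± 1497 normalised counts, log2 fold change 1.03), and Fads3, of the fatty acid desaturase family (275 ± 107 to 642 ± 230, 1.23). The 6 lower genes were Mlycd, malonyl-CoA decarboxylase (2927 ± 560 to 1525 ± 184, −0.94), Slc25a1, the mitochondrial citrate carrier (−0.47), Agpat2, the acyltransferase after Gpam (−0.70), Pgd, which makes NADPH (−0.74), Tecr, of the elongation cycle (−0.46), and Acsl5, an acyl-CoA synthetase (−0.47). The median log2 fold change of the 19 was −0.47, against 0.30 over all genes fitted in liver, with the limit on such medians given above for the enzymes. With the trend on deposited length taken out 4 of the 19 listed genes passed, Fads3 higher and Mlycd, Pgd and Acsl5 lower, beside 12.3% of the liver table.

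In ileum 18 of the 54 are listed and 2 passed, Prkaa2, a catalytic subunit of AMP-activated kinase, which rose (log2 fold change 0.78), and Tecr, which fell (−0.68), beside 30.6% called over the whole ileum table. With the length trend taken out 0 passed by edgeR, 7 of the 18 having an unadjusted p under 0.05 there. The share of the ileum table called in that fit is not given here, so this count cannot be set against it. In duodenum 2 and in jejunum 5 of the 54 are listed, and edgeR called 0 of them at an adjusted p of 0.05, with 1 and 4 at an unadjusted p under 0.05, as DESeq2 and the authors' deposited table also called 0. Of 17 regulators of the pathway 8 are listed in liver and 4 passed, beside 44.0% of the liver table: Mlxipl (ChREBP) rose from 3729 ± 490 to 6040 ± 874 normalised counts (log2 fold change 0.70 ± 0.15, edgeR adjusted p = 0.0186), and Nr1h3, Usf1 and Mlx fell. With the trend on deposited length taken out 0 of the 8 listed in liver passed by edgeR, beside 12.3% of the liver table. In that fit 4 had an unadjusted p under 0.05 (Mlxipl 0.42, edgeR adjusted p = 0.122). Mlxipl passed with the trend on longest-transcript length taken out (0.64, edgeR adjusted p = 0.0183). In ileum 9 of the 17 are listed, and 2 passed, Nr1h2 (−0.42) and Usf2 (−0.41), which fell. Srebf1, named after its value was seen, is listed in ileum alone, where it did not pass (−0.31, edgeR adjusted p = 0.131). With the trend on deposited length taken out, Nr1h2 and Usf2 did not pass in ileum and Srebf1 did, lower in Khk KO (−0.53, edgeR adjusted p = 0.0495), while with the GC trend taken out its sign turned (0.14). In jejunum edgeR called 0 of the 2 listed regulators, both with an unadjusted p under 0.05. Ppara passed there in DESeq2 (adjusted p = 0.0195) and in the authors' deposited table (adjusted p = 0.0202), higher in Khk KO.

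The genes with the pattern most like each enzyme's were taken as those with the smallest root mean square difference in log2 level over the 8 libraries of an organ, each gene centred on its own mean. Among 4566 liver genes whose mean normalised count reached 100, Plin2, which coats lipid droplets, was nearest to Scd1 (difference 0.265 log2 units), before Paqr7 and Pltp. Acaca was nearest to Tfe3 (0.0703), Gpam to Tmem56 (0.0743) and Fasn to Abcb1a (0.128). Among 3966 ileum genes Gpam was nearest to Igsf10 (0.182), Rgs9 and Abca1, the last a cholesterol exporter. This is a description over libraries that were also used for the contrast.

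Fat cells also use these enzymes, and markers of fat cells were uneven between the libraries. In liver 6 of 10 fat cell markers are listed, with summed normalised counts of 1052 to 1743 in WT and 669 to 1442 in Khk KO. By the values of the authors' deposited table, 4 of the 6 were lower at an adjusted p of 0.05 (Cfd, Fabp4, Cidec and Lipe), Plin1 was lower and Plin4 higher without passing. Cfd was at 603 in WT replicate 3 and at 26.3 in WT replicate 1, and Plin1 ran from 0 to 36.3 in WT and from 0 to 8.33 in Khk KO. Across the WT libraries in the order of their numbers, Lipe had 486, 412, 237 and 292 normalised counts and Plin4 had 274, 426, 203 and 552. WT replicate 3, the lowest of the 4 for Scd1, was the lowest for Lipe and Plin4 and the highest for Cfd, Fabp4, Cidec and Plin1. In ileum 6 of 10 markers are listed, summing to 2182 to 5092 in WT and 1581 to 2408 in Khk KO. Their part in the results was not tested.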

How the data were processed

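RNA with poly-A tails from liver, duodenum, jejunum and ileum of male WT and Khk KO mice was sequenced, 4 libraries per group, grouped by their titles. Per the file headers, the authors deposited 1 table per organ with raw read counts, a normalised signal, FPKM, gene positions, a log2 fold change, a p-value and an adjusted p-value. The normalised signal is the deposited count divided by 1 size factor per library, as checked on the values. HISAT2 2.0.5 and GRCm38 (mm10) are named in the submitters' processing notes, with no role given. The counting tool is not given in the sources used here, and the labels name a directional and a non-directional library, so strand is unknown. The tables hold only genes with p under 0.05, so no count of a whole library is given. The read totals implied by the deposited counts, FPKM and lengths ran from 9821512 to 15174254 in liver and 15691175 to 29475414 in duodenum. They ran from 14797693 to 19915152 in jejunum and 17297866 to 27068822 in ileum.

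Counts were refitted per organ with edgeR 4.0.16 (R 4.3.3): the authors' size factors, filterByExpr, the quasi-likelihood test of Khk KO against WT, and Benjamini-Hochberg adjustment over as many genes as in the deposited adjustment (18225 for liver, 15615 for duodenum, 9881 for jejunum, 16034 for ileum, recomputed from the ranks of the p-values). The trend fits subtract from each library a lowess curve (span 0.5) of its log2 level on log2 length or on GC content. Lengths of longest transcripts and GC come from GENCODE M21, promoters from RefSeq GRCm38.p6. On simulated counts with 200 genes changed 2-fold, 83% of them were recovered for liver, 83% for duodenum, 79% for jejunum and 94% for ileum. Of the calls, 2.92% for liver, 7.26% for duodenum, 3.07% for jejunum and 6.47% for ileum were unchanged genes. The simulations held 5738 genes for liver, 1406 for duodenum, 2045 for jejunum and 4788 for ileum, fewer than the adjustment above counted. These shares therefore cannot be read as the recovery of the reported test.

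All enzymes were named whether or not they passed; of the other pathway genes, those called were named. The members and lists were chosen with earlier results of these data known. DESeq2 1.42.0, TMM scaling, no filter, the trend fits, a replicate block and leaving out each library were the alternatives.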

Additional observations from a re-analysis of the deposited data

Results flagged for a closer look

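Elovl6 in Khk KO ileum replicate 2 had 1614.12 normalised counts, far below the other 3 Khk KO libraries, which lay close together; the gap to the nearest was 0.841 of the group's range, above Dixon's critical value of 0.829 for 4 samples. In jejunum, which lists none of the enzymes, Khk was far higher in WT replicate 1 (13852.4, gap 0.871 of the range) than in the other WT libraries. It was far lower in Khk KO replicate 1 (541.4, gap 0.893) than in the other Khk KO libraries. Chance marks about 1 in 20 groups this way, and 34 groups were looked at.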

How the results depend on the processing

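The number of enzymes called in liver, 5 with size factors alone, was 1 with the trend on deposited length taken out and 2 with that on longest-transcript length, an alternative chosen after seeing the data; it ran from 0 to 7 without a library, 0 without WT replicate 4 or Khk KO replicate 1, 2 or 4, 1 without WT replicate 2 or Khk KO replicate 3, and 7 without WT replicate 1. Over the whole liver table the calls ran from 19 to 4879 without a library, against 2807. The other pathway genes called in liver, 8, were 4 in each length fit, 13 in DESeq2, 14 in the authors' deposited table, and 0 to 17 without a library. Enzymes called in ileum, 1, were 2 with TMM scaling and in DESeq2, 0 with either length trend or the GC trend taken out, and 0 to 2 without a library, 2 without WT replicate 1 and 0 without WT replicate 2 or 3 or any 1 Khk KO library. Pathway genes called in ileum, 2, were 11 with TMM scaling, 5 with no filter, 0 in each length fit, 12 in DESeq2, 10 in the authors' deposited table, and 0 to 10 without a library. The shares of the ileum table called in the trend fits are not given here, so counts of 0 in those fits cannot be set against them. For the enzymes and the pathway genes, counts of 0 in duodenum and jejunum stayed 0 in every alternative run. No enzyme is listed in jejunum, so its count there could only be 0. Without a library, edgeR called from 0 to 3 genes over the whole table in each of these organs. Those runs therefore say little about the enzymes or the pathway genes.

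Signs turned for Acaca in liver (−0.42 with each length trend out) and ileum (−0.41 with deposited length, −0.39 with longest-transcript length), for Fasn in liver (−0.23 with longest-transcript length), and for Elovl6 in ileum (−0.11 with longest-transcript length, −0.041 with GC). Scd1, Me1, Acacb, Acly, Elovl5 and Gpam kept their direction in each of 16 alternatives in every organ that lists them. With TMM scaling 5 enzymes passed in liver, Acly in place of Gpam. With the replicate block, 5 enzymes and 9 pathway genes passed in liver, 0 and 1 in ileum, and the adjusted p of Khk rose to 0.0902 in duodenum and 0.155 in jejunum; same-numbered libraries correlated at −0.096 to 0.065 in liver and −0.16 to −0.011 in ileum, and 3 and 0 of 8 libraries in those organs correlated best with their own number, 1 in duodenum and 5 in jejunum. TMM scaling moved the median of the duodenum table from −0.33 to −0.18. The cause of these changes was not tested. Every fit saw only genes selected on the same 8 libraries, so leaving 1 out does not measure how stable a call is.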
